A study of Mus musculus with 48 samples.

Results

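Livers of 4 mice fed high energy diets were compared with livers of 5 mice fed medium energy diets, all with 33% of dietary energy from protein. The 9 mice were taken by their labelled diets from the 48 mice measured, 1 expression array per mouse. The groups were High energy 33/47/20 (2 mice), High energy 33/20/47 (2 mice), Medium energy 33/47/20 (2 mice) and Medium energy 33/20/47 (3 mice), where the 3 figures give the shares of energy, in percent, that came from protein, from carbohydrate and from fat. All had free access to 1 diet from 3 weeks of age, lived 3 to a cage, and gave their livers at 15 months. The question was whether energy density goes with a difference in liver expression where protein is not scarce. The sources used here state neither the strain, nor the sex of each mouse, nor the energy content behind the words high and medium. Mice of both sexes entered the study, and 1 mouse per cage was measured.

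The liver takes up the nutrients of a meal and stores or releases fuel. After feeding, insulin favours fat synthesis and holds down gluconeogenesis, the making of new glucose, together with genes such as Igfbp1. In the unfed state glucagon and glucocorticoids raise genes such as Ppargc1a, Tat and Lpin1, and the nuclear receptor PPAR alpha raises genes of fatty acid oxidation. Many of these genes also follow the time of day and the sex of the mouse.

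The livers carried high levels of hepatocyte genes, with Alb, the gene of serum albumin, between 12.63 and 12.94 in high energy mice and between 12.81 and 13.04 in medium energy mice on the log2 scale of the deposited values. The interquartile range of the array, a measure of its overall spread, averaged 3.16 ± 0.16 in high energy mice and 3.17 ± 0.15 in medium energy mice (SD, n = 4 and 5, exact permutation test, two-sided p = 0.952, smallest possible p 0.0159). The median correlation was 0.969 for the 6 pairs of arrays within a group and 0.966 for the 30 pairs across groups. Y-linked genes lay above Xist, the RNA of the inactive X chromosome, in 2 of 4 high energy mice and 3 of 5 medium energy mice. Both High energy 33/47/20 mice had Y-linked genes above Xist and both High energy 33/20/47 mice had Xist above them, so sex and composition cannot be told apart within high energy. In each medium energy composition both patterns were present. The labels number the mice 131, 162, 195 and 198 in high energy and 150, 381, 418, 419 and 420 in medium energy. What the number stands for is not given, and 4 of 5 medium energy mice but 0 of 4 high energy mice had a number over 300.

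In these 9 livers the lipid genes Fabp4 and Lpin1, the urate-degrading enzyme Uox, the sodium pump subunit Atp1b1 and the stress gene Ddit4 had lower values in high energy mice, and Inhbe, Sult5a1 and Ugt2b37 had higher values. No gene passed the test: 0 of 16926 genes (0%) had a limma adjusted p under 0.05, with composition as a covariate, and the smallest adjusted p was 0.78. At an unadjusted p under 0.05 there were 990 genes (5.85%), 481 with higher and 509 with lower values in high energy, where 846 would be expected by chance. Of all differences, 49.5% were positive. The median standard error of a difference was 0.21, and the 95% interval lay within a 2-fold change either way for 87.2% of genes. That share takes in genes with means near the filter value of 1.17, so it does not describe well-expressed genes alone. Differences over 1 on the log2 scale were estimated for 156 genes (0.922%). In 157 genes (0.928%) every high energy mouse lay above every medium energy mouse, and in 127 (0.750%) every high energy mouse lay below. Every gene below has an adjusted p of at least 0.78 in this comparison. The genes described next are the 10 with the smallest p in each direction, so their differences describe the top of the ranking and are not separate findings.

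The smallest p of all belonged to Fabp4, a carrier of fatty acids known from adipocytes and macrophages. Its values were 5.06 and 3.53 in High energy 33/47/20 mice and 5.57 and 4.34 in High energy 33/20/47 mice, against 6.59 and 6.72 in Medium energy 33/47/20 mice and 6.54, 7.46 and 8.19 in Medium energy 33/20/47 mice. The groups did not overlap, and the difference was -2.40 ± 0.39 (SE), a 5.29-fold lower level in high energy (limma adjusted p = 0.78). It was nearly alike at both compositions, -2.36 at 33/47/20 and -2.44 at 33/20/47. Of 7 adipocyte markers 6 were measured and 4 tested, 2 with positive and 2 with negative differences and a median of -0.16. The mean log2 value of the 6 lay between 3.28 and 3.76 in high energy mice and between 3.84 and 4.20 in medium energy mice. This mean holds Fabp4 itself, the gene of smallest p, so its gap between the groups is not separate from the Fabp4 difference. Adipoq, the adipocyte hormone adiponectin, lay between 0.89 and 1.43 in high energy mice and between 0.65 and 1.06 in medium energy mice, and Lep, leptin, reached at most 1.06 in either group. Retn, resistin, and Plin1, the adipocyte droplet coat, reached at most 1.86 and 1.98 in any mouse. Car3, a carbonic anhydrase that hepatocytes also express, lay between 11.36 and 12.59 in high energy mice and between 11.75 and 12.25 in medium energy mice. The mean log2 value of the 17 macrophage markers lay between 4.47 and 5.39 in high energy mice and between 4.93 and 6.09 in medium energy mice. The part of adipocytes or macrophages in the Fabp4 difference was not tested, and in whole liver fewer cells of a type and less RNA per cell cannot be told apart.

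Lpin1, a phosphatase on the way to triglyceride that also acts as a coactivator in the unfed liver, stood at 8.15 and 7.17 in High energy 33/47/20 mice and 8.94 and 9.07 in High energy 33/20/47 mice. In Medium energy 33/47/20 mice it stood at 10.90 and 10.04, and in Medium energy 33/20/47 mice at 9.56, 10.39 and 10.33. No high energy mouse reached the lowest medium energy mouse, and the difference was -1.87 ± 0.36 (SE; 3.66-fold lower, limma adjusted p = 0.78). Uox, the peroxisomal urate oxidase that mice use to clear uric acid, had a small difference and little spread. It lay between 10.97 and 11.11 in the 4 high energy mice and between 11.46 and 11.63 in the 5 medium energy mice, a difference of -0.53 ± 0.11 (SE; 1.44-fold lower).

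Atp1b1, the beta subunit of the sodium-potassium pump, was tight in high energy, with values of 7.14, 7.29, 7.39 and 7.33. The medium energy mice spread from 7.84 to 9.68, above all 4, and the difference was -1.41 ± 0.32 (SE). Ddit4, a stress-induced inhibitor of the growth kinase mTORC1, showed the same shape. Its high energy values were 4.82, 4.62, 4.73 and 5.22, against 7.82 and 6.25 in Medium energy 33/47/20 mice and 5.22, 7.86 and 6.94 in Medium energy 33/20/47 mice. The groups met at 5.22, and the difference was -1.98 ± 0.48 (SE).

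The other 5 genes with the smallest p among the lower ones were 2 small nucleolar RNAs, 2 signalling genes and a chromosome protein. Snora41 (-1.51) and Snord43 (-1.39) belong to the RNAs that guide chemical modification of other RNAs, and neither overlapped between the groups. Map3k5, the stress-activated kinase ASK1, had a difference of -0.86, and Il6ra, the binding chain of the interleukin-6 receptor, one of -1.03, both with overlapping groups. Sgo2a, a shugoshin that guards chromosome cohesion in dividing cells, had a difference of -0.95, with high energy values between 0.93 and 1.23, at the floor of the scale.

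Among the genes with higher values in high energy, Inhbe encodes a subunit of activin E, a protein the liver secretes. It stood at 8.18, 8.50, 8.12 and 8.40 in high energy mice, against 7.30 and 7.49 in Medium energy 33/47/20 mice and 7.38, 6.41 and 7.62 in Medium energy 33/20/47 mice. The groups did not overlap, and the difference was 1.04 ± 0.23 (SE; 2.06-fold, limma adjusted p = 0.78). Ugt2b37, a glucuronosyltransferase that conjugates small molecules, had the largest difference among these genes, 2.25 ± 0.47 (SE; 4.74-fold). Its high energy values were 1.77 and 3.82 at 33/47/20 and 4.50 and 3.92 at 33/20/47, while the medium energy mice lay between 0.94 and 1.99. A single high energy mouse lay within the medium energy range. That mouse was High energy 33/47/20 replicate 1, and leaving it out was bound to enlarge the difference, which became 2.81. Ugt2b37 then passed the threshold (limma adjusted p = 0.0228), the only gene to do so in any fit without 1 of the 9 mice. Because the mouse left out was the mouse that ran against the difference, this pass is not separate support.

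Sult5a1, a sulfotransferase, lay between 3.52 and 3.98 in high energy mice and between 2.11 and 3.03 in medium energy mice (difference 1.25 ± 0.25, SE). Chrna2, a subunit of nicotinic acetylcholine receptors, lay between 4.45 and 5.29 in high energy mice and between 2.82 and 4.16 in medium energy mice (difference 1.39 ± 0.31, SE). The remaining 6 genes were Tmco6, Tnfaip8l1, Mmd, the zinc finger gene Zfp458 and the transcripts Gm8203 and 5031425E22Rik, with differences between 0.77 for Mmd and 1.02 for Tnfaip8l1. Of the 10 genes with higher values, 8 had groups that did not overlap, as had 8 of the 10 with lower values. Over all genes the shares were 0.928% and 0.750%. Genes chosen for the smallest p are bound to overlap little, so these counts are not separate support.

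**Figure D1:**
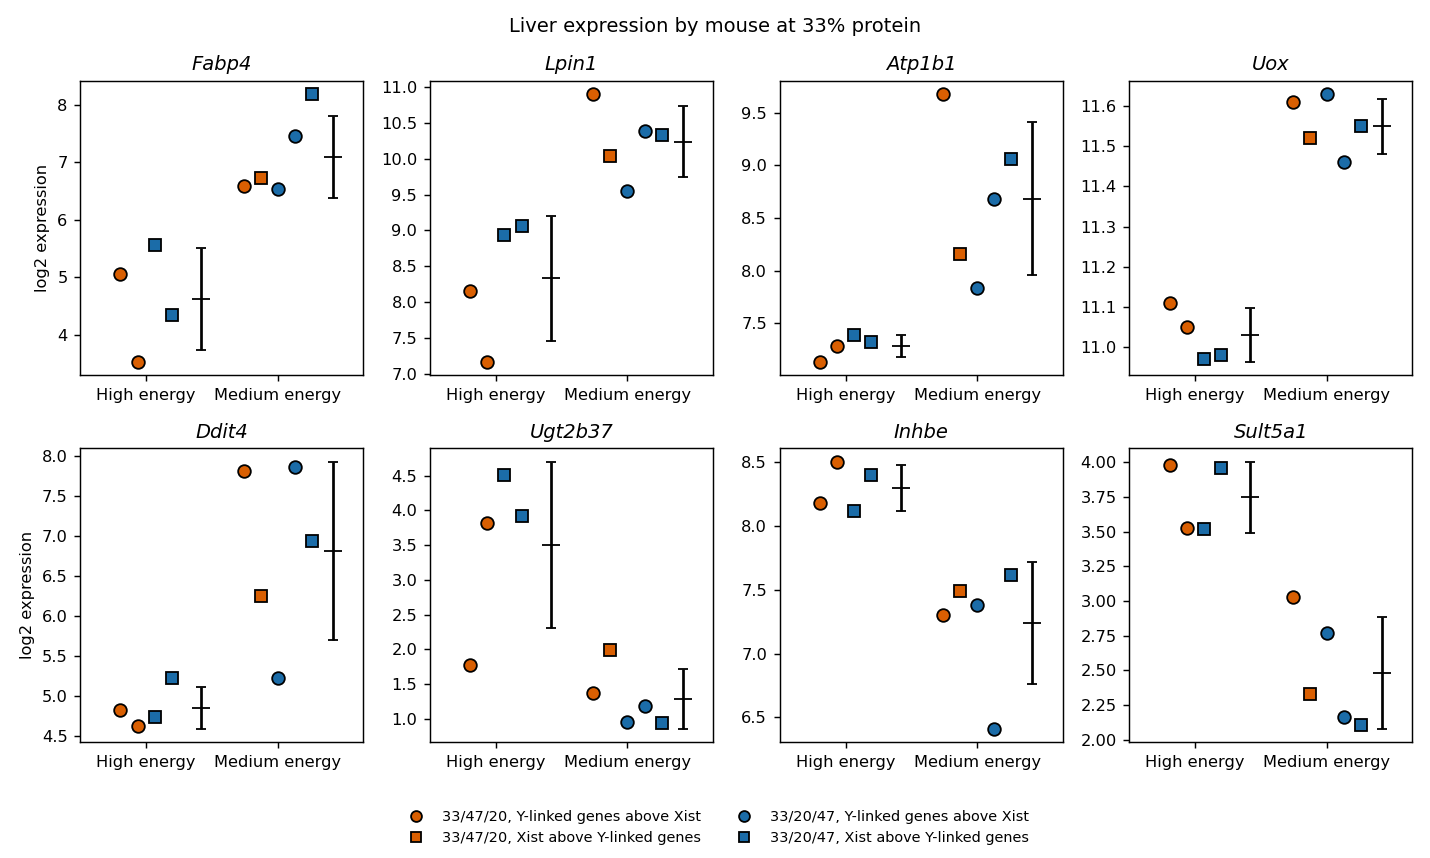
Log2 expression (vertical axes) of 8 of the 20 genes of smallest p in each of the 9 mice, high energy left of medium energy; colour gives composition, shape gives whether Y-linked genes lay above Xist, and the bar beside each group is its mean ± SD. Fabp4, Lpin1, Atp1b1 and Uox lie lower and Inhbe and Sult5a1 higher in every high energy mouse than in any medium energy mouse, while 1 high energy mouse falls within the medium range for Ugt2b37.

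The single medium energy mouse numbered under 300, Medium energy 33/20/47 replicate 1, was nearest to the high energy mean for 6 of the 10 genes with lower values and 5 of the 10 with higher values. In a fit of the mice numbered under 300 the difference in Fabp4 was -1.58, in Lpin1 -0.56, in Ddit4 -0.25 and in Uox -0.66. With composition as a covariate and 1 medium energy mouse, it sets only the 2 High energy 33/20/47 mice against that mouse. Those 2 had Xist above Y-linked genes, and the medium energy mouse had Y-linked genes above Xist. Sex and energy cannot be told apart in that fit, and the same holds for every value against this mouse given below. Energy and mouse number can scarcely be told apart in these 9 mice.

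A fit that took the spread from all 48 mice, and the same contrast between the same 9, put 5 genes past the threshold (0.0295%), all with lower values in high energy. They were Snord43, Atp1b1 and Sgo2a (limma adjusted p = 0.0344 each), Fabp4 (adjusted p = 0.0358) and Uox (adjusted p = 0.042). With a term for a mouse number over 300 in that fit, 0 genes passed (918 at an unadjusted p under 0.05), and the 5 genes had adjusted p between 0.0969 and 0.623. Their estimates in it were -2.22 for Fabp4, -1.16 for Atp1b1, -1.27 for Snord43, -1.11 for Sgo2a and -0.48 for Uox.

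Gene lists were then read by their counts and medians, which were set beside those of all genes. No gene of the 40 lists passed the threshold, and 52 of the 562 list genes tested had an unadjusted p under 0.05. The median difference over all 16926 genes was -0.0027, with quartiles of -0.16 and 0.15. Over all genes, 2.84% had higher and 3.01% lower values at an unadjusted p under 0.05.

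Lipid handling was mixed. Of 27 genes that burn fatty acids or answer to PPAR alpha, 22 had positive differences, with a median of 0.16 (0.40 at 33/20/47 and -0.11 at 33/47/20). In high energy mice a split by composition is also a split by sex, here and in the lists below. At an unadjusted p under 0.05 there were 3 with higher and 1 with lower values. Acaa1a, a thiolase of peroxisomal oxidation, lay between 6.86 and 7.36 in high energy mice and between 6.33 and 6.82 in medium energy mice, without overlap (difference 0.56). Vnn1, a pantetheinase and PPAR alpha target, had a difference of 1.58, and Slc25a20, the mitochondrial carrier of acylcarnitines, one of 0.46. Slc25a20 differed by 0.84 at 33/20/47 and by 0.01 at 33/47/20. Angptl4, a secreted inhibitor of lipoprotein lipase, went against the list with a difference of -0.40.

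Of 17 genes of lipid droplets and storage, 7 had positive and 10 negative differences, and the median was -0.03. Lpin1 above was the member with lower values at an unadjusted p under 0.05. Higher values at that level were seen for 3 members. Plin2, the droplet coat protein of hepatocytes, was at 10.10, 10.09, 10.25 and 10.06 in high energy mice and between 9.36 and 9.96 in medium energy mice, a difference of 0.39. G0s2, an inhibitor of the lipase that opens droplets, had a difference of 1.46, and Mogat1, which builds diacylglycerol, one of 0.76, both with overlapping groups. In the list of lipoprotein assembly and clearance, with 15 genes tested and a median of -0.01, the only gene at that level was Lpl, lipoprotein lipase. Lpl stood at 4.53, 4.52, 4.81 and 4.07 in high energy mice, against 7.56 and 4.72 in Medium energy 33/47/20 mice and 5.92, 5.91 and 8.67 in Medium energy 33/20/47 mice (difference -2.04 ± 0.65, SE). In all, 4 of the 5 medium energy mice lay above all high energy mice, and 1 lay among them.

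Fatty acid synthesis had a median of -0.03 over 19 genes, with 0 at higher and 2 at lower values at an unadjusted p under 0.05. These were Acaca, the acetyl-CoA carboxylase that commits carbon to fat (-0.64), and Tkfc, a kinase of fructose breakdown (-0.36). Fasn, fatty acid synthase, spread from 7.62 to 10.23 in high energy mice and from 7.64 to 10.47 in medium energy mice, and its difference of -0.35 had a 95% interval of -1.42 to 0.72. For Scd1, the stearoyl-CoA desaturase, the interval ran from -1.34 to 0.29. Cholesterol synthesis and uptake had positive differences in 15 of 18 genes and a median of 0.23, which was 0.72 at 33/47/20 and -0.0011 at 33/20/47. It was 0.02 without Medium energy 33/47/20 replicate 1 and 0.51 without High energy 33/20/47 replicate 1. For the High energy 33/20/47 mice against the medium energy mouse numbered under 300 it was -0.50. Insig1, which retains the sterol sensor in the endoplasmic reticulum, had a difference of 0.53, and Hsd17b7, an enzyme of the pathway, one of 0.51. Both had an unadjusted p under 0.05 and overlapping groups. Of 18 bile acid genes 13 had positive differences, with a median of 0.20, and Cyp8b1, the sterol 12-alpha-hydroxylase, had the largest, 1.51. For the High energy 33/20/47 mice against the medium energy mouse numbered 150, Cyp8b1 differed by -0.32. Nr1h4, the bile acid receptor FXR, and Slco1b2, an uptake carrier, had differences of 0.39 and 0.40. Cyp7a1, the rate-limiting enzyme of bile acid synthesis, had an interval of -0.97 to 1.52.

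In the gluconeogenesis list 8 of 10 differences were negative, and the median of -0.09 lay within the quartiles of all genes. For the High energy 33/20/47 mice against the medium energy mouse numbered under 300 the median was 0.17. In all, 3 members with lower values had an unadjusted p under 0.05. Ppargc1a, the coactivator PGC-1 alpha, stood at 5.67, 5.65, 5.44 and 6.73 in high energy mice, against 7.59 and 6.53 in Medium energy 33/47/20 mice and 5.92, 6.97 and 7.47 in Medium energy 33/20/47 mice (difference -1.02 ± 0.37, SE). The groups overlapped by 1 high energy mouse. Foxo1, the transcription factor that insulin shuts out of the nucleus, had a difference of -0.56, and Gpt2, the mitochondrial alanine aminotransferase, one of -0.48. The terminal enzymes were close: Pck1 had an interval of -0.48 to 0.10 and G6pc one of -0.56 to 0.51.

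Igfbp1, a secreted binding protein that insulin represses, lay at 9.37, 8.43, 9.70 and 9.96 in high energy mice and between 9.17 and 11.59 in medium energy mice (difference -1.26 ± 0.49, SE). Its lowest medium energy value, 9.17, was that of the mouse numbered 150, so the groups overlapped. For the High energy 33/20/47 mice against that mouse, Igfbp1 differed by 0.65 and Ppargc1a by 0.16, both of the opposite sign. The High energy 33/47/20 mice do not enter these values. Igfbp2, another such binding protein, had a difference of -0.57, Fst, the activin antagonist follistatin, one of -0.77, and Igfals, the carrier subunit of circulating IGF1, one of 0.51. The list of insulin and growth signalling had a median of -0.16 over 18 genes, 0.14 without High energy 33/47/20 replicate 2 and 0.06 without High energy 33/20/47 replicate 1. The 4 genes just named were its members at an unadjusted p under 0.05. Igf1 itself had an interval of -0.24 to 0.45. Among 17 clock genes 3 with lower values had an unadjusted p under 0.05, namely Per1 (-1.02), Ciart (-1.47) and Bhlhe40 (-0.49). Per1 differed by -2.10 at 33/47/20 and by -0.13 at 33/20/47. For the High energy 33/20/47 mice against the medium energy mouse numbered 150 it differed by 0.91. Arntl and Dbp, which peak at opposite times of day, had differences of -0.09 and 0.02, and the sources used here do not state the hour at which livers were taken.

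Genes of amino acid breakdown had small differences. Amino acid catabolism had a median of -0.02 over 25 genes, with 1 member higher and 2 lower at an unadjusted p under 0.05. Tdo2, which opens the breakdown of tryptophan, lay between 10.70 and 10.93 in high energy mice and between 11.01 and 11.57 in medium energy mice, without overlap (difference -0.48). Tat, the tyrosine aminotransferase, had a difference of -0.44 and Oat, the ornithine aminotransferase, one of 0.36. In the branched-chain list 16 of 18 differences were positive, with a median of 0.11. Bckdk, the kinase that switches off branched-chain breakdown, lay at 6.93, 7.25, 7.37 and 7.15 in high energy mice and between 6.28 and 6.72 in medium energy mice (difference 0.64 ± 0.16, SE). Amino acid synthesis genes and targets of the stress factor ATF4 had negative differences in 15 of 20 cases and a median of -0.36, and 4 with lower values had an unadjusted p under 0.05. The mean log2 value of the list was 5.43 in Medium energy 33/47/20 replicate 1 and 5.15 in Medium energy 33/20/47 replicate 3, beside 4.21 to 4.49 in high energy mice and 4.41 to 4.62 in the other 3 medium energy mice. The median was 0.04 for the High energy 33/20/47 mice against the medium energy mouse numbered under 300. Beside Ddit4, the members at that level were Phgdh, the first enzyme of serine synthesis (-0.68), Cebpb, a transcription factor (-0.75), and Atf3, a stress-induced factor (-1.41). Asns, asparagine synthetase, spread from 1.96 to 6.62 in high energy mice and from 3.04 to 6.54 in medium energy mice, with an interval of -3.16 to 0.56.

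Cell cycle genes had the lowest median of the 37 lists with 5 or more tested genes, -0.64, with 16 of 18 differences negative and 5 with lower values at an unadjusted p under 0.05. Mki67, a marker of dividing cells, stood at 2.52, 2.44, 2.10 and 2.54 in high energy mice, against 5.21 and 3.99 in Medium energy 33/47/20 mice and 2.62, 2.60 and 3.92 in Medium energy 33/20/47 mice (difference -1.36 ± 0.39, SE). The high energy mice lay together at the low end and 3 medium energy mice stood well above them. Mcm6, a helicase of DNA replication, lay between 3.00 and 3.14 in high energy mice and between 3.45 and 4.12 in medium energy mice (difference -0.73), Top2a, a topoisomerase, had a difference of -0.79 and Rrm2, a subunit of ribonucleotide reductase, one of -0.70, both with overlapping groups. Levels were low, with a mean log2 value of the list between 2.48 and 2.73 in high energy mice and between 2.63 and 3.88 in medium energy mice. Leaving out 1 mouse at a time gave medians from -0.74 to -0.32. For the High energy 33/20/47 mice against the single medium energy mouse numbered under 300 the median was 0.11. The mean log2 value of the list was 2.626 in that mouse. It was 2.688 and 2.73 in the High energy 33/20/47 mice, and 2.485 and 2.529 in the High energy 33/47/20 mice, which do not enter that median. Btg2, a p53 target that slows proliferation, had a difference of -1.32 ± 0.36 (SE) without overlap between the groups. Cdkn1a, the cell cycle inhibitor p21, had a difference of -1.07 and an interval of -2.22 to 0.08. The p53 list had a median of -0.29 over 10 genes. For the High energy 33/20/47 mice against the medium energy mouse numbered under 300 its median was 0.25.

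Markers of several other cell types also had more negative than positive differences. Of 17 macrophage markers 16 had negative differences, with a median of -0.34, and Cd5l (-0.69) and Marco (-1.34), both of Kupffer cells, the resident macrophages, had an unadjusted p under 0.05. Stellate cell and fibrosis markers had a median of -0.31 over 16 genes, 0 of them at that level, and it was -0.85 at 33/47/20 and 0.13 at 33/20/47. Col1a1, a chain of type I collagen, was at 6.68 in Medium energy 33/47/20 replicate 1 and between 2.33 and 4.01 in the other medium energy mice, against 2.83 to 3.25 in high energy mice. Cholangiocyte markers had a median of -0.46 over 6 genes and neutrophil markers one of -0.40 over 7, with 2 and 1 of them lower at an unadjusted p under 0.05. The neutrophil median was -0.05 without Medium energy 33/47/20 replicate 2. The mean log2 value of the cholangiocyte markers was 3.02 and 3.03 in Medium energy 33/47/20 replicate 1 and Medium energy 33/20/47 replicate 3, beside 1.91 to 2.30 in high energy mice and 2.30 to 2.37 in the other 3 medium energy mice. The same pair of mice had the highest mean values of the cell cycle list, 3.88 and 3.62. Of 9 erythroid markers 2 were tested, with a median of -0.68, and their mean value lay between 1.33 and 1.59 in high energy mice and between 1.37 and 3.80 in medium energy mice, the highest in Medium energy 33/20/47 replicate 3. Endothelial markers had a median of -0.07 over 13 genes and lymphocyte markers one of 0.06 over 16. Hepatocyte markers had a median of -0.12 over 11 genes, and their mean log2 value lay between 10.69 and 10.89 in high energy mice and between 10.74 and 10.96 in medium energy mice. For the High energy 33/20/47 mice against the medium energy mouse numbered under 300, the macrophage median was 0.53, the stellate median 0.24 and the cholangiocyte median 0.03. Sex and energy cannot be told apart in these 3 values. The part of cell makeup in the lists above was not tested.

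**Figure D2:**
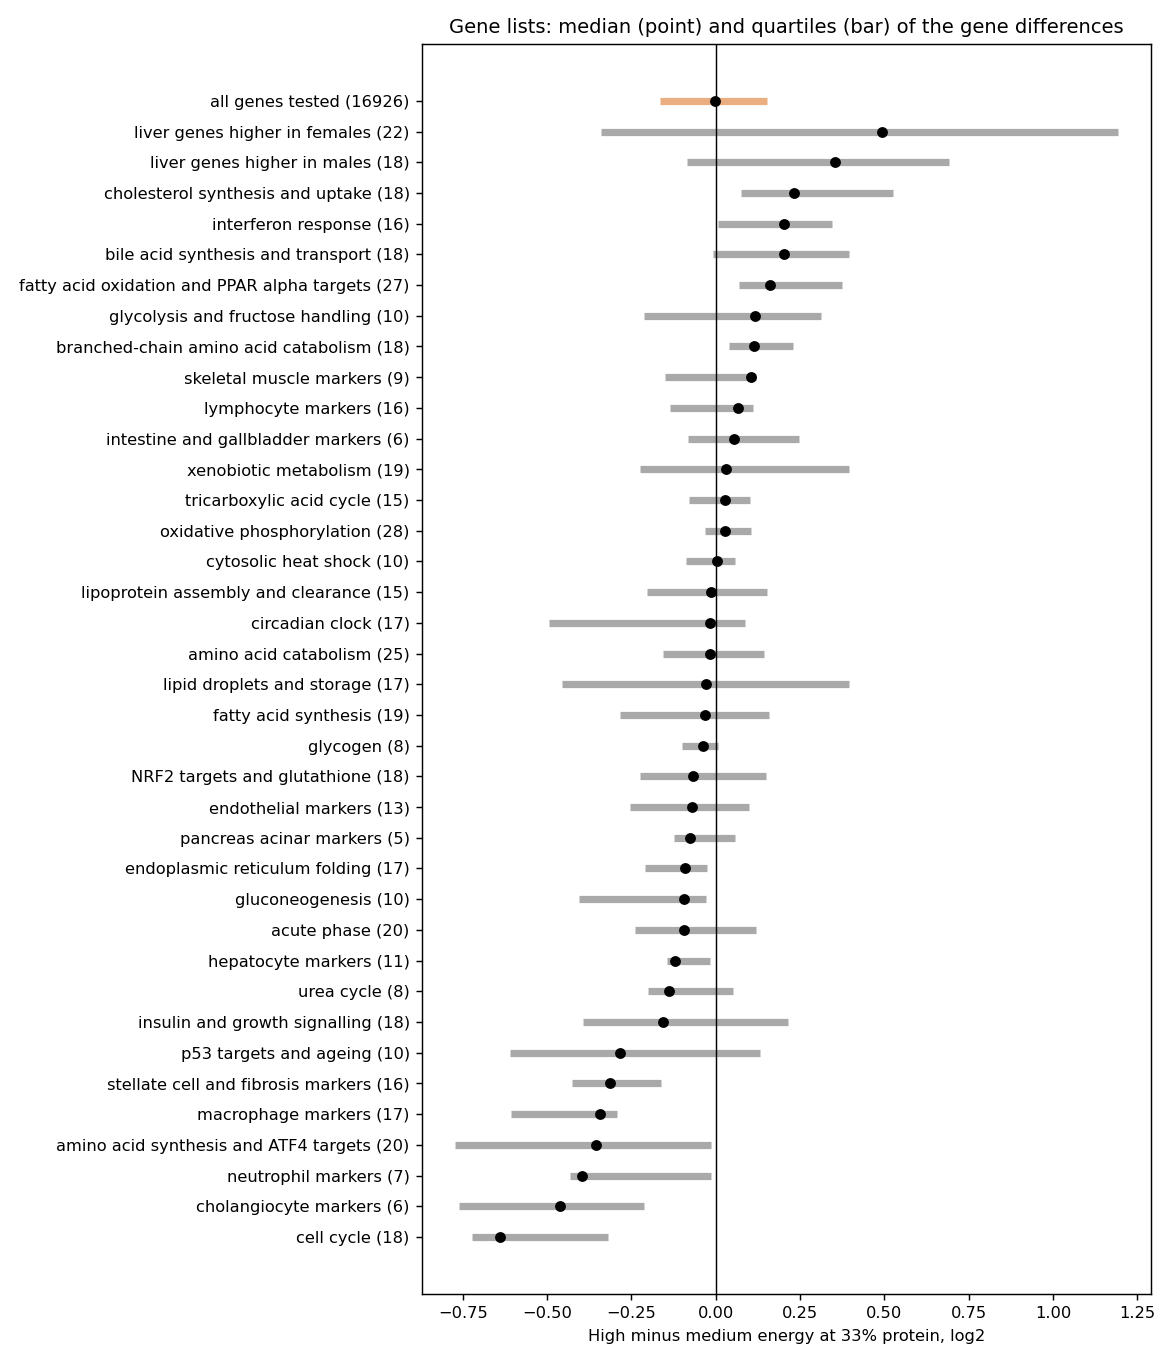
Difference between high and medium energy at 33% protein on the log2 scale (horizontal axis) for the 37 lists with 5 or more tested genes, number of tested genes in brackets, and for all genes at the top; points are medians and bars run from the first to the third quartile. Cell cycle genes have the lowest median (-0.64), and liver genes higher in females (0.49) and in males (0.35) the highest, beside -0.0027 for all genes.

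Of 32 genes set down for their known responses to diet, 26 were tested, 22 of them with a 95% interval that held 0 and 8 with an interval within a 2-fold change either way. Their differences ran from -1.30 for Asns to 0.94 for Cidea. Cidea, a droplet protein of fatty liver, stood at 5.97 in High energy 33/47/20 replicate 1, beside 1.73 to 2.27 in the other high energy mice and 1.60 to 2.56 in medium energy mice. Fgf21, a liver hormone of nutrient stress, lay between 4.49 and 6.70 in high energy mice and between 4.07 and 6.38 in medium energy mice, with an interval of -0.43 to 1.67. Lepr, the leptin receptor, had one of -2.12 to 0.53, Cpt1a, the gate of mitochondrial fatty acid oxidation, one of -0.35 to 0.40, and Cps1, the entry enzyme of the urea cycle, one of -0.46 to 0.06. The intervals of Fgf21, Lepr and Asns held differences of over 2-fold, so these arrays could not show smaller ones.

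The next question was whether the energy difference was the same at 33/47/20 and at 33/20/47. For 9 of 16926 genes (0.0532%) it differed between the compositions (limma adjusted p under 0.05 for the product term), beside 1126 (6.65%) at an unadjusted p under 0.05, and all 9 had opposite signs at the 2 compositions. C8a, Cyp2c54, Slc41a2 and Egfr (4 genes, 0.0236%) were higher in high energy at 33/47/20 and lower at 33/20/47. Slc39a5, Nqo1, Xcl1, Cbr1 and Hamp2 (5 genes, 0.0295%) ran the other way. C8a, the alpha chain of complement component 8, stood at 9.99 and 10.72 in High energy 33/47/20 mice against 9.22 and 7.96 in Medium energy 33/47/20 mice. At 33/20/47 it stood at 6.01 and 6.53 in high energy mice against 10.47, 10.35 and 9.75 in medium energy mice, and the 2 differences were 5.69 ± 0.57 (SE) apart (limma adjusted p = 0.00857).

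Egfr, the receptor of epidermal growth factor, followed the same order, with 10.51 and 10.33 in High energy 33/47/20 mice, 9.62 and 9.03 in Medium energy 33/47/20 mice, 8.13 and 7.89 in High energy 33/20/47 mice, and 10.36, 10.30 and 9.56 in Medium energy 33/20/47 mice (differences 3.16 ± 0.40 apart, SE, limma adjusted p = 0.0352). Cyp2c54, a cytochrome P450, had differences of 3.65 at 33/47/20 and -3.01 at 33/20/47, and Slc41a2, a magnesium transporter, 1.26 and -2.81. In the opposite sense, Slc39a5, a zinc transporter, stood at 2.14 and 1.83 in High energy 33/47/20 mice against 3.95 and 3.44 in Medium energy 33/47/20 mice, and at 4.83 and 4.53 in High energy 33/20/47 mice against 1.88, 1.70 and 1.999 in Medium energy 33/20/47 mice. Within each composition the energy groups did not overlap, and the differences were -4.53 ± 0.43 apart (SE, limma adjusted p = 0.00857). Nqo1, a quinone reductase, had differences of -1.58 at 33/47/20 and 1.66 at 33/20/47, Cbr1, a carbonyl reductase, -1.20 and 0.76, Xcl1, a chemokine, -1.63 and 1.15, and Hamp2, a relative of the iron hormone hepcidin, -3.74 and 3.31. Slc15a5, the next positive gene, did not pass (limma adjusted p = 0.0919).

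**Figure D3:**
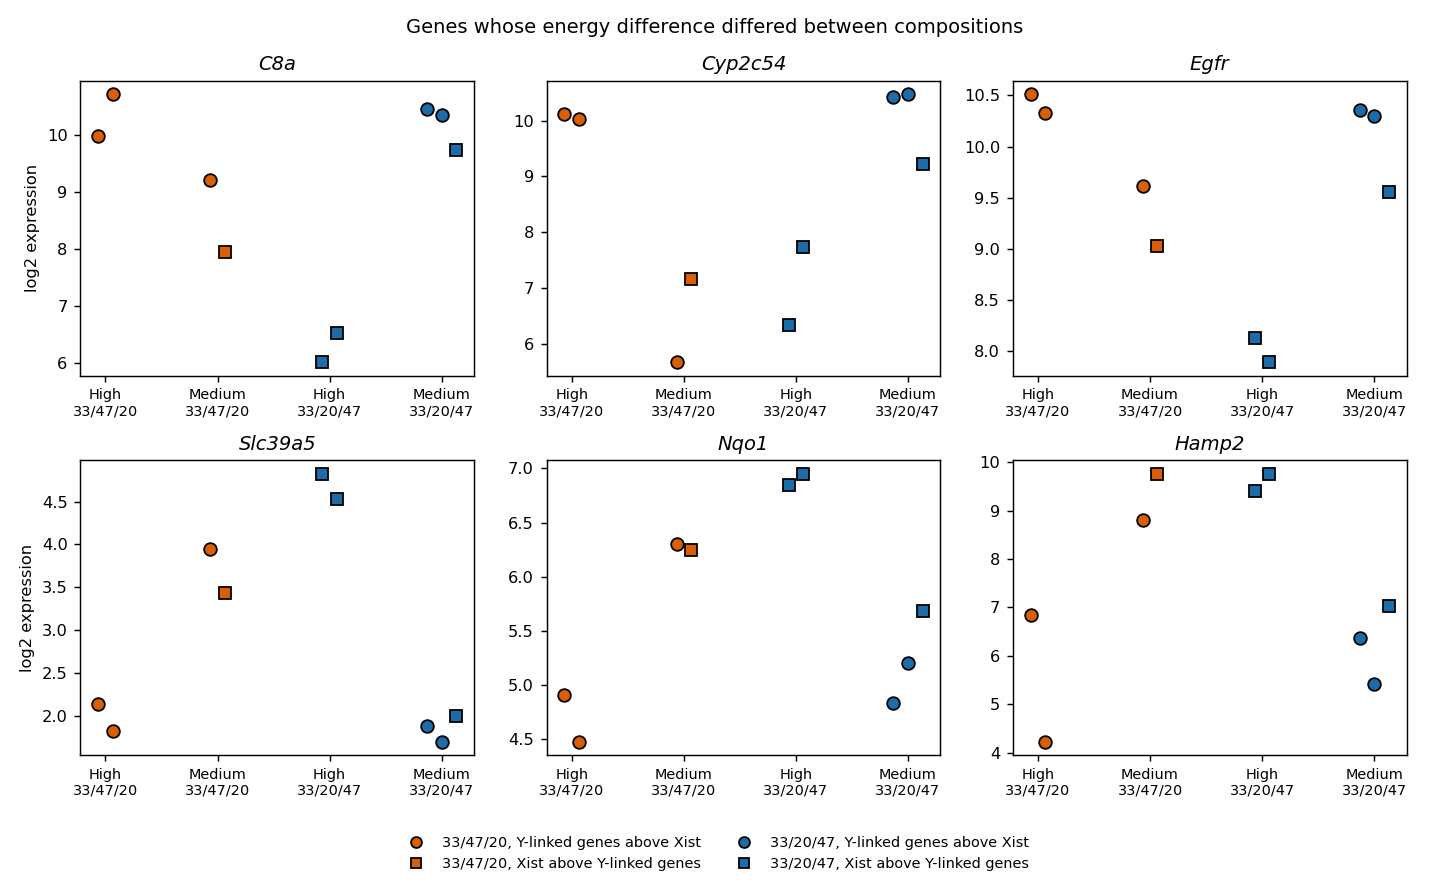
Log2 expression (vertical axes) of 6 of the 9 genes whose energy difference differed between compositions, by mouse, with the high energy group left of the medium energy group at each composition; circles are mice with Y-linked genes above Xist and squares those with Xist above. The mice of the 2 high energy compositions do not overlap for any gene shown, and they also differ in symbol.

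The sexes were split by composition in the high energy group, and lists of genes known to differ by sex in mouse liver went with the same contrast. Liver genes higher in males had a median difference of 2.73 at 33/47/20 and -2.06 at 33/20/47 (18 genes tested), and liver genes higher in females had -3.06 and 3.31 (22 genes tested), with 0 of either list past the threshold for the product term. Levels of such genes did not follow Xist in every mouse. Hsd3b5, a steroid dehydrogenase of male liver, was at 8.30 and 9.45 in High energy 33/47/20 mice but at 0.86 in Medium energy 33/47/20 replicate 1, which had Y-linked genes above Xist, and at 7.68 and 5.61 in the other medium energy mice of that kind. With the Y-linked minus Xist value as a covariate, 0 genes had a product term past the threshold (666 at an unadjusted p under 0.05), and the 9 genes had adjusted p between 0.102 and 0.493. With the spread taken from all 48 mice it was also 0, with adjusted p for the 9 between 0.168 and 0.48. Leaving out 1 mouse gave between 0 and 35 genes: 0 without High energy 33/47/20 replicate 2, High energy 33/20/47 replicate 1 or Medium energy 33/20/47 replicate 2, and 35 without Medium energy 33/20/47 replicate 3. Sex and composition cannot be told apart in the high energy mice, so the 9 calls cannot be assigned to either.

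**Figure D4:**
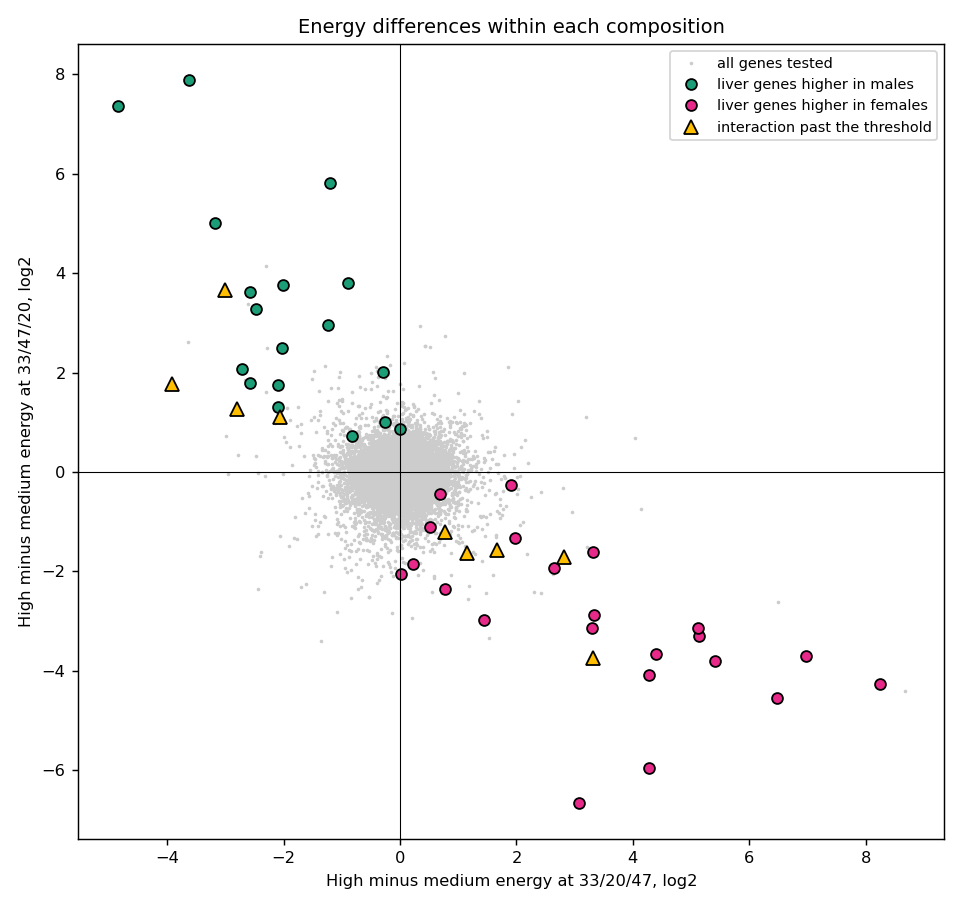
Difference between high and medium energy at 33/47/20 (vertical axis, log2) against that at 33/20/47 (horizontal axis, log2) for all 16926 genes, with liver genes higher in males, liver genes higher in females and the 9 genes with a product term past the threshold marked. Male genes lie at the upper left (medians 2.73 and -2.06) and female genes at the lower right (medians -3.06 and 3.31), and the 9 genes lie along the same diagonal.

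The same contrast was then looked up in mice on other protein shares, none of which entered the comparison at 33%. At 14/29/57, 14/57/29, 23/38/38 and 42/29/29, 10 high energy mice were set against 9 medium energy mice. There 2074 genes passed the threshold (12.3%), 751 higher (4.44%) and 1323 lower (7.82%) in high energy (limma), but without the 1 medium energy mouse at 14/29/57 only 9 passed (0.0532%). The difference between the contrast at 33% protein and that at the other shares passed for 162 genes (0.957%), 136 positive (0.803%) and 26 negative (0.154%), and for 0 without that mouse (1215 at an unadjusted p under 0.05, 7.18%). Values below leave that pair of groups out, so that 6 high energy mice stand against 8 medium energy mice. Only 1 of these was a high energy mouse at 42/29/29. A number over 300 went mostly with high energy here, the reverse of 33% protein. Y-linked genes lay above Xist in most of these high energy mice and in a minority of the medium energy mice. Liver genes higher in males had a median difference of 1.23 in this contrast and those higher in females one of -1.54. The part of sex and mouse number in the values below was not tested.

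Of the 20 genes of smallest p at 33% protein, 12 (60.0%) had the same sign in these other mice, and 0 of them had an unadjusted p under 0.05 there. Among all 16926 genes 57.4% had the same sign, and 1825 had the same sign and an unadjusted p under 0.05 there. Of the 990 genes at an unadjusted p under 0.05 at 33% protein, 63.5% had the same sign in the other mice. Of these, 127 also had an unadjusted p under 0.05 there. Fabp4 differed by 0.07 there against -2.40 at 33% protein, Uox by 0.11 against -0.53, Atp1b1 by -0.09 against -1.41 and Inhbe by -0.01 against 1.04. Lpin1 (-0.56), Ddit4 (-0.51), Il6ra (-0.40), Sult5a1 (0.51) and Tmco6 (0.40) had smaller differences of the same sign. The cell cycle median was -0.01 in the other mice, the macrophage median -0.33, the ATF4 median -0.27 and the fatty acid oxidation median -0.18. Btg2 differed by -1.11 there, close to its -1.32 at 33% protein, and Lpl by -1.30.

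**Figure D5:**
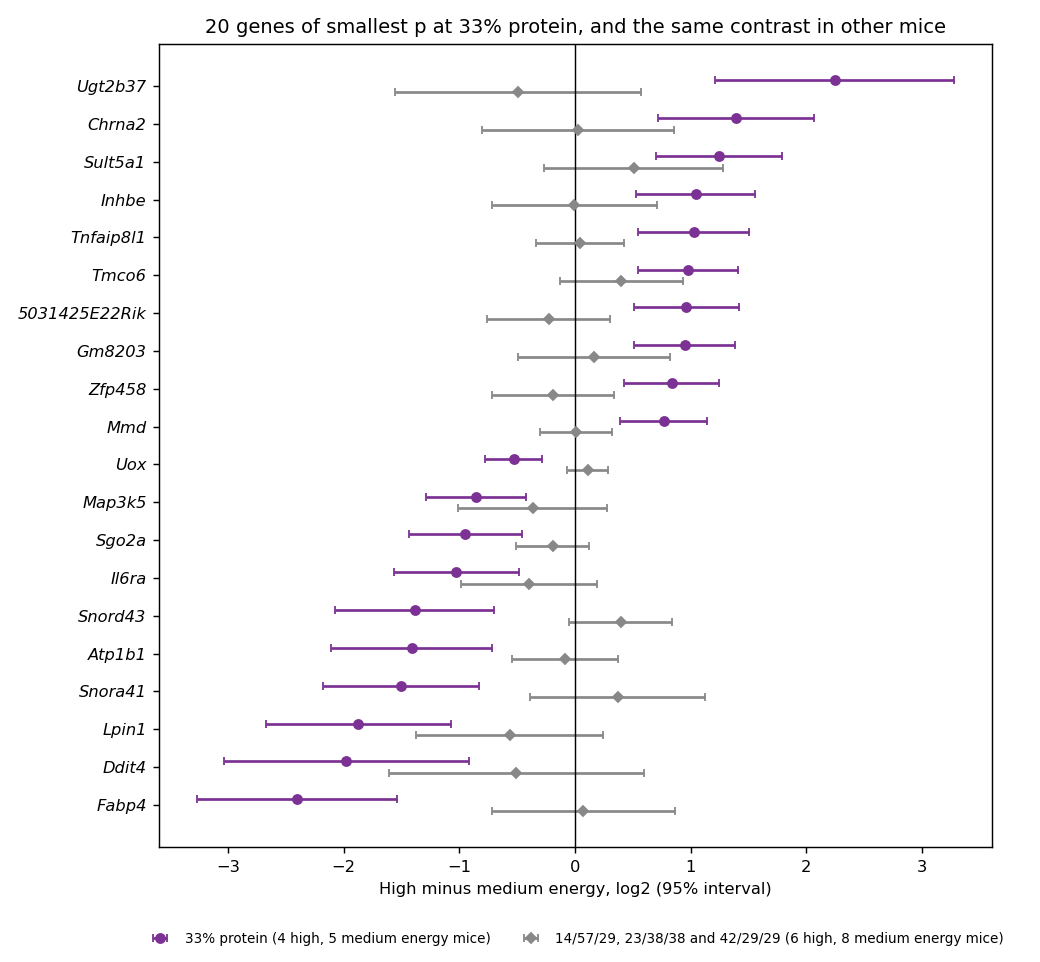
Difference between high and medium energy on the log2 scale with its 95% interval for the 20 genes of smallest p, at 33% protein (purple circles, 4 and 5 mice) and at 14/57/29, 23/38/38 and 42/29/29 (grey diamonds, 6 and 8 mice). The intervals in the other mice hold 0 for the genes shown, among them Fabp4 at 0.07 and Uox at 0.11.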

How the data were processed

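Affymetrix arrays were hybridized with biotin-labelled liver RNA, per the labels' protocols. Values of 41345 probe sets per array, from -0.51 to 13.42, were deposited and read here as log2 expression from their range. The sources used here state neither the authors' background correction nor their normalization or build. Arrays give no counts, so their number limits the precision. The platform annotation gave 23521 probe sets 1 gene symbol, 1814 several, and did not list 16010, and 23328 of the first matched the RefSeq table of GRCm38.p6. A gene was its probe set of highest mean, and of 22180 genes, 16926 whose mean exceeded the 30th percentile of means (1.17) were tested.

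Energy (high minus medium) and composition were fitted to the 9 mice by lmFit and by eBayes with its trend option (limma 3.58.1, R 4.3.3), two-sided, with Benjamini-Hochberg adjustment over all genes tested and a threshold of 0.05. Composition by energy was a product term. Contrasts at other shares used 1 mean per diet combination over all 48 mice. Array measures were compared over all 126 splits of the mice (scipy 1.17.1). The models were tested on simulated data. Mice came from separate cages, per the labels. Replicate numbers follow accession order and pair nothing.

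Named were the 10 genes of smallest p each way, up to 4 members of smallest p of the lists described, genes of a set of 32 diet-responsive genes, and up to 5 genes each way for the product term and for the difference from other shares. Comparison, lists and rules were chosen with earlier results of these data known. Other levels of single genes (Adipoq, Lep, Retn, Plin1, Hsd3b5) and the small nucleolar RNAs were chosen after their values were seen. Alternatives varied covariates, mice, filter, normalization, array weights, prior and choice of probe set.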

Additional observations from a re-analysis of the deposited data

Results flagged for a closer look

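Within groups of 4 or 5 mice, the gap of the highest or lowest mouse to the nearest other was large against the group's range in 5 of 132 tests over 66 genes, where chance gives about 5% of groups. High energy 33/47/20 replicate 1 stood apart in Cidea (5.97). Among medium energy mice, 33/47/20 replicate 1 was lowest in Car3 (11.75) and Orm1 (9.34), 33/20/47 replicate 3 in Cyp7a1 (4.87) and 33/20/47 replicate 2 in Inhbe (6.41).

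The energy difference at 33/47/20 minus that at 33/20/47 passed the limma threshold for C8a (5.69), Cyp2c54 (6.67), Slc41a2 (4.07), Egfr (3.16), Cbr1 (-1.97), Xcl1 (-2.78), Nqo1 (-3.24), Slc39a5 (-4.53) and Hamp2 (-7.05).

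The energy difference at 33% protein minus that at other shares passed for the carbonyl reductase Cbr2 (2.05), F13a1 (1.93), Ccr1 (1.75), Clec4d (1.70), Mmp8 (1.28), Cyp2e1 (-0.67), Rgn (-1.38), Mug2 (-1.39), Serpina6 (-1.61) and Car3 (-2.36), the 5 of smallest p each way. At 33% protein itself Cbr2 differed by -0.09, F13a1 by -0.14, Ccr1 by -0.08, Clec4d by -0.33 and Car3 by 0.0021. Without the single medium energy 14/29/57 mouse the 10 values lay between -0.67 for Mug2 and 0.33 for Serpina6, and 0 genes passed (1215 at an unadjusted p under 0.05 by limma).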

How the results depend on the processing

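The count of 0 genes at 33% protein stood under another filter, probe set rule, normalization, weights, prior or covariate. It was 5 with all 48 mice, 6 with all 48 mice and the Y-linked minus Xist value, and 41 with the 5 mice numbered under 300, a fit with 2 residual degrees of freedom and 1 medium energy mouse. Leaving out 1 mouse gave 0 to 1. The product term gave 9 calls with array weights or no filter, and 0 with the Y-linked minus Xist value, 0 with all 48 mice and 0 with both, the last chosen after seeing the data. Leaving out 1 mouse gave 0 to 35 for the product term: 35 without Medium energy 33/20/47 replicate 3, 3 without its replicate 1 and 0 without its replicate 2; 26 without Medium energy 33/47/20 replicate 1; 14 and 0 without High energy 33/47/20 replicates 1 and 2; 0 and 4 without High energy 33/20/47 replicates 1 and 2. At other shares 2074 calls became 9 without the medium energy 14/29/57 mouse. The 162 calls for the difference from other shares became 252 with the interquartile range of the array, 44 with mouse number over 300 and 0 without that mouse. Signs turned in the mice numbered under 300 for Angptl4 (0.0792), Cd5l (0.0922), Ciart (0.25), Cyp8b1 (-0.32) and Gpt2 (0.14). They also turned for Igfbp1 (0.65), Per1 (0.91), Ppargc1a (0.16), Rrm2 (0.21) and Tat (0.0780). The energy difference in that fit sets only the High energy 33/20/47 mice, with Xist above Y-linked genes, against 1 medium energy mouse of the other pattern. Without the 14/29/57 mouse the difference from other shares turned for Ccr1 (-0.0678), Clec4d (-0.0434), Cyp2e1 (0.16), F13a1 (-0.43), Mmp8 (-0.24), Rgn (0.24) and Serpina6 (0.33). The causes were not tested. No paired analysis was possible because the labels give mouse numbers and no pairs. With 4 and 5 arrays the 95% interval of the median gene reached 0.45 either way.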

Other observations

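Small nucleolar RNAs, which guide the chemical modification of ribosomal and spliceosomal RNA, were looked at as a class after Snora41 and Snord43 appeared among the genes of smallest p. Of 73 measured and tested, 68 had negative differences between high and medium energy at 33% protein, with a median of -0.50, and 26 with lower and 0 with higher values had an unadjusted p under 0.05, where 3.01% of all genes had lower and 2.84% higher values at that level. Their mean log2 value lay between 6.22 and 7.34 in high energy mice and between 7.21 and 7.82 in medium energy mice. The median was -0.71 at 33/47/20 and -0.39 at 33/20/47, and it stayed between -0.65 and -0.36 when 1 mouse was left out. In the mice at 14/57/29, 23/38/38 and 42/29/29, where sex and mouse number were not balanced between the energy levels, it was 0.39. These RNAs share their length class and their route through RNA extraction, and the part of that in the difference was not tested.

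Oxidative phosphorylation had a median of 0.03 over 28 genes and the tricarboxylic acid cycle one of 0.03 over 15, with 0 genes of either at an unadjusted p under 0.05. The urea cycle had a median of -0.14 over 8 genes, the acute phase one of -0.10 over 20 and the interferon response one of 0.20 over 16, with 0, 0 and 1 genes at an unadjusted p under 0.05. Of 4 genes of ketone body synthesis 2 were tested, with differences of 0.21 for Bdh1 and 0.32 for Acat1. In the interferon list 12 of 16 differences were positive, but its median was -0.38 at 33/47/20 and 0.46 at 33/20/47. In the mice on other protein shares, without the pair of groups left out above, the interferon median was -0.54. Sex and mouse number were not balanced between the energy levels in those mice. Medians at 33/47/20 and 33/20/47 also had opposite signs for the urea cycle (-0.39 and 0.15) and the acute phase (0.23 and -0.28). The same held for oxidative phosphorylation (-0.11 and 0.11) and the tricarboxylic acid cycle (-0.03 and 0.11). Sex and composition cannot be told apart in the high energy mice.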
